A study of Mus musculus with 6 samples.

Results

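Conjugating enzymes attach a water-soluble group to drugs, hormones and metabolic by-products, and liver holds many of them. The genes described here are the glutathione S-transferases (GST), UDP-glucuronosyltransferases (UGT) and cytosolic sulfotransferases (SULT). Members were the rows whose annotated symbol begins with Gst and a class letter (a, k, m, o, p, t or z), with Ugt1, Ugt2 or Ugt3, or with Sult and a digit, leaving out pseudogenes. They came to 52 of 19505 genes measured: 21 GST, 10 UGT and 21 SULT genes. Each had 1 row in the table. No row with a Ugt1a symbol entered, so the UGT1A enzymes, among them the one that conjugates bilirubin, were not analysed here.

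Both groups were whole livers of male C57BL/6 mice at 8 weeks of age. The 3 HMGB2-KO livers came from mice lacking Hmgb2, which encodes a DNA-bending chromatin protein, and the 3 WT livers from wild-type mice. The labels name no treatment or operation for these livers, and neither is the deleted part of the gene or whether the deletion was limited to some cells. The livers carry animal numbers 39, 41 and 32 in HMGB2-KO replicates 1 to 3, and 38, 40 and 31 in WT replicates 1 to 3.

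GST enzymes join glutathione to electrophiles, such as reactive drug metabolites and products of lipid peroxidation. UGT enzymes of the endoplasmic reticulum transfer glucuronic acid from UDP-glucuronic acid to steroids, bile acids and drugs. SULT enzymes transfer a sulfonate group from the donor PAPS to phenols, steroids and amines. In mouse liver many of these genes respond to the sensors NRF2, CAR, PXR and AHR, and several differ between males and females under the control of growth hormone.

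Each value was a log2 difference from a baseline of its own row, after every array had been centred on its median. No source used here gives the baseline. Differences between livers can be read from such values, but not how abundant an enzyme's transcript is, nor which of 2 genes is the higher. For the same reason the hepatocyte markers cannot show by their level that the tissue is liver. In whole tissue, fewer cells of a type and less RNA per cell cannot be told apart. Hmgb2 was at -0.66, -0.33 and -0.43 in HMGB2-KO replicates 1 to 3, against 0.47, 0.36 and 0.42 in WT replicates 1 to 3, without overlap and as labelled (log2 fold change -0.89, SE 0.13, limma adjusted p = 0.645). The array of WT replicate 2 stood apart from the others. As deposited, this array had a median of 0.26, where the other 5 lay between -0.05 and 0.01. For the 1091 olfactory receptor rows its median was 0.51, where the others lay between -0.12 and 0.02. Values without that liver stand beside many of the results, and leaving it out also changed the sign or size of small differences given once, such as that of Gstp2.

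No gene of the 3 families passed the test between genotypes, and the 3 with the smallest p were all lower in HMGB2-KO livers. These were Sult6b1 at a log2 fold change of -0.67, Sult3a1 at -0.53 and Gstm2 at -0.53 (HMGB2-KO against WT). With limma and Benjamini-Hochberg adjustment over the 19505 genes, the adjusted p of the 52 members lay between 0.994 and 0.999, and 0 passed 0.05. Over all genes 0.0% passed, with a smallest adjusted p of 0.350. At an unadjusted p under 0.05, 3 members were lower (5.77% of the 52, against 2.61% of all genes) and 0 were higher (against 1.06% of all genes). At 1.5-fold with an unadjusted p under 0.05, 1 member, Sult6b1, was lower (1.92%, against 0.702% of all genes) and 0 were higher (against 0.0564% of all genes, or 0.759% in either direction). The lower count was 3 as deposited (5.77%, against 1.46% of all genes). It was also 3 when HMGB2-KO replicate 2 was left out (against 1.02% of all genes). It was 2 (3.85%) when HMGB2-KO replicate 1, WT replicate 1 or WT replicate 3 was left out, against 1.05%, 1.19% and 1.48% of all genes. In 4 members (7.69%) all HMGB2-KO livers lay below all WT livers, namely Sult6b1, Gstm2, Sult3a1 and Sult2a3, where 5.35% of all genes did. In 0 members did they lie above, where 4.32% of all genes did. When WT replicate 2 was left out, 2 members had an unadjusted p under 0.05 (3.24% of all genes), and the genotypes were apart in 6 members that were lower (9.62% of all genes) and 3 that were higher (8.3% of all genes). These are small counts beside shares of all genes of a similar order, and nothing particular to the families is read from them. For a single gene the exact two-sided permutation test of 3 against 3 livers cannot go below 0.1.

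**Figure D1:**
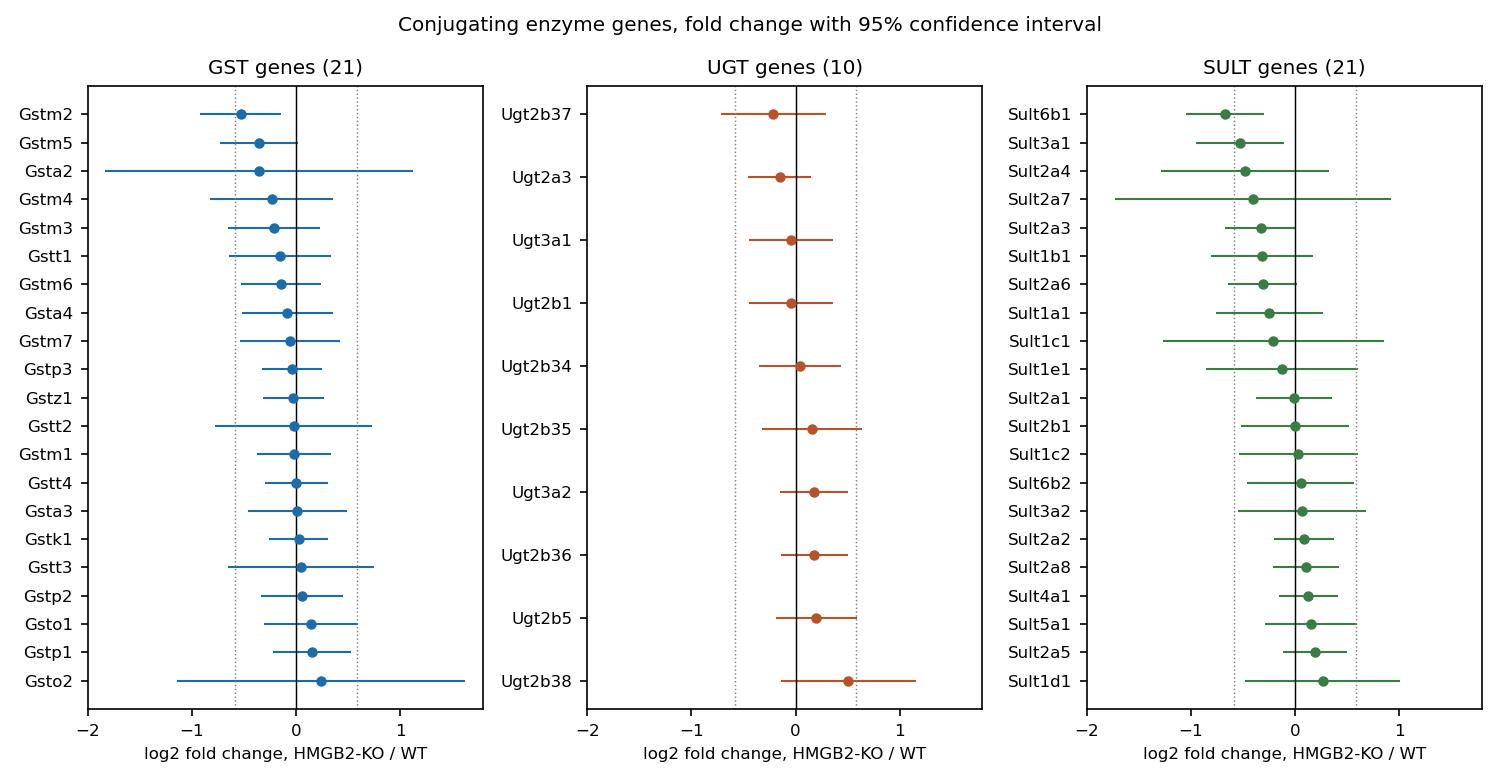
Log2 fold change (HMGB2-KO against WT) of each of the 52 genes, with its 95% confidence interval from limma, in a panel per family. The dotted lines mark a 1.5-fold change. The intervals of Sult6b1, Sult3a1 and Gstm2 lie below 0, and all others reach 0.

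Over each family the middle of the fold changes lay near 0. The median log2 fold change was -0.02 for GST genes (13 of 21 lower), 0.10 for UGT genes (6 of 10 higher) and -0.01 for SULT genes (12 of 21 lower), beside -0.00 for all genes. Without WT replicate 2 the medians were -0.11 for GST, -0.03 for UGT and 0.01 for SULT genes, beside -0.01 for all genes. The 95% confidence interval lay wholly inside a 1.5-fold change either way for 24 of the 52 members (46.2%), against 67.9% of all genes. In the families it did so for 11 GST, 6 UGT and 7 SULT genes. For the other 28 members, Sult6b1, Sult3a1 and Gstm2 among them, a change larger than 1.5-fold lay within the interval.

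Among GST genes, all 7 of the mu class had a negative log2 fold change, from -0.53 to -0.02 with a median of -0.21, where 50.5% of all genes were negative. Of these 7, Gstm2 had an unadjusted p under 0.05, and the class was not tested against the others. Mu enzymes are among the abundant GST proteins of mouse liver, and their genes lie side by side. In RefSeq order along the chromosome the log2 fold changes were -0.36 for Gstm5, -0.06 for Gstm7, -0.15 for Gstm6, -0.21 for Gstm3, -0.53 for Gstm2, -0.02 for Gstm1 and -0.23 for Gstm4. The genes next to Gstm2 on either side, Gstm3 and Gstm1, thus had smaller differences than Gstm2. All 7 stayed negative with the values as deposited, with quantile normalization and without WT replicate 2, but Gstm1, Gstm6 and Gstm7 turned positive with another liver left out. These genes are close copies, so probes of one may read another, and their single values are uncertain.

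Gstm2 was at -0.89, -0.63 and -0.84 in HMGB2-KO replicates 1 to 3, against -0.16, -0.56 and -0.05 in WT replicates 1 to 3. The genotypes did not overlap, and WT replicate 2 lay next to the highest HMGB2-KO liver. The log2 fold change was -0.53 (SE 0.17, 95% confidence interval -0.92 to -0.14, limma unadjusted p = 0.0141, adjusted p = 0.994), and -0.68 without WT replicate 2. Its neighbour Gstm1 was at 0.01, 0.28 and 0.01 in HMGB2-KO livers, against 0.33, -0.06 and 0.07 in WT livers, and its interval ran from -0.37 to 0.33. There the genotypes overlapped fully. Gstm5, known from brain and testis more than from liver, was at -0.31, -0.09 and 0.08 in HMGB2-KO livers, against 0.02, 0.43 and 0.30 in WT livers (log2 fold change -0.36, SE 0.16, adjusted p = 0.994 in limma). Only HMGB2-KO replicate 3 reached above the lowest WT liver. Gstm4 was at -0.36, 0.42 and -0.25 in HMGB2-KO livers, against 0.54, -0.15 and 0.12 in WT livers. Gstm3 was at -0.83, -0.39 and -0.44 in HMGB2-KO livers, against -0.04, -0.58 and -0.42 in WT livers. Both genes overlapped between genotypes. When WT replicate 2 was left out the log2 fold change was -0.33 for Gstm3, -0.40 for Gstm4 and -0.11 for Gstm1.

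The stretch before the start of Gstm2, the mu gene with the largest difference, is shown beside that of its neighbour Gstm1. Both are the 120 bases before the annotated start in RefSeq, build GRCm38.p6, minus strand, at chr3:107986421-107986540 for Gstm2 and chr3:108017974-108018093 for Gstm1. Capitals mark GCGTG, the core bound by the receptor AHR with its partner ARNT, searched on both strands. Gstm1 held it and these bases of Gstm2 did not, and the 2 stretches were identical at 61 of 137 aligned positions (44.5%). The mu gene Gstm5, at a log2 fold change of -0.36, also held GCGTG, at bases -38 and -171 from its start. A link between the motif and the fold changes was not tested.
Gstm2: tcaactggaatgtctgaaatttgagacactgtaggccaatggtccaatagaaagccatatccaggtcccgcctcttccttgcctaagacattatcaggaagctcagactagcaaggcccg
Gstm1: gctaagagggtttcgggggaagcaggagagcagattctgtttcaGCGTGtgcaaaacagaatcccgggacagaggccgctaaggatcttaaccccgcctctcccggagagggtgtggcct

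The alpha class was marked by differences between single livers. Gsta2, whose enzyme conjugates lipid peroxides and drugs, ranged over 2.71 log2 units, the widest range of all 52 members. It was at -2.40, 0.31 and -0.73 in HMGB2-KO replicates 1 to 3, against -0.84, -1.03 and 0.10 in WT replicates 1 to 3. HMGB2-KO livers held both the lowest and the highest value. The log2 fold change of -0.35 (SE 0.64) was within its error. It was 0.38 without HMGB2-KO replicate 1 and -0.57 when WT replicate 2 was left out. Gsta4, which encodes the enzyme for the lipid aldehyde 4-hydroxynonenal and lies close to Gsta2, was at -0.55, 0.08 and -0.06 in HMGB2-KO livers, against -0.07, -0.26 and 0.05 in WT livers. In Gsta4 the 6 livers stood in the same order as in Gsta2, on a narrower scale. Gsta3, an alpha enzyme that detoxifies aflatoxin epoxide in mice, was at -0.04, 0.21 and 0.45 in HMGB2-KO livers, against 0.31, -0.18 and 0.45 in WT livers. Its log2 fold change was 0.01 (SE 0.20), and it turned negative as deposited (-0.10), with quantile normalization, with array weights and when WT replicate 2 was left out (-0.17).

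The other GST classes showed small differences or a single liver far from the rest. Gstp1, the pi enzyme that is abundant in male mouse liver, was at -0.14, 0.28 and 0.06 in HMGB2-KO livers, against -0.02, -0.30 and 0.05 in WT livers (log2 fold change 0.15, SE 0.16, and 0.05 when WT replicate 2, the lowest liver, was left out). Its near copy Gstp2 was at 0.06 and Gstp3 at -0.03. Gsto2, of the omega class that reduces dehydroascorbate, was at -0.15, -0.21 and -0.11 in HMGB2-KO livers, against -2.01, 0.36 and 0.46 in WT livers. WT replicate 1 alone was low, so the log2 fold change was 0.24 (SE 0.59) with all livers and -0.57 without that liver. It was 0.62 when WT replicate 2 was left out. The theta genes Gstt2 and Gstt3 were highest in HMGB2-KO replicate 2, at 0.84 and 0.81. In the remaining 5 livers they lay between -0.44 and 0.46 for Gstt2 and between -0.43 and 0.27 for Gstt3. Gstt2 had a log2 fold change of -0.02 (SE 0.32), which became 0.15 when WT replicate 2 was left out. Ranges were narrow for Gstk1, the kappa enzyme of mitochondria and peroxisomes, at 0.20, and for Gstz1, at 0.27, which encodes maleylacetoacetate isomerase of tyrosine breakdown.

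**Figure D2:**
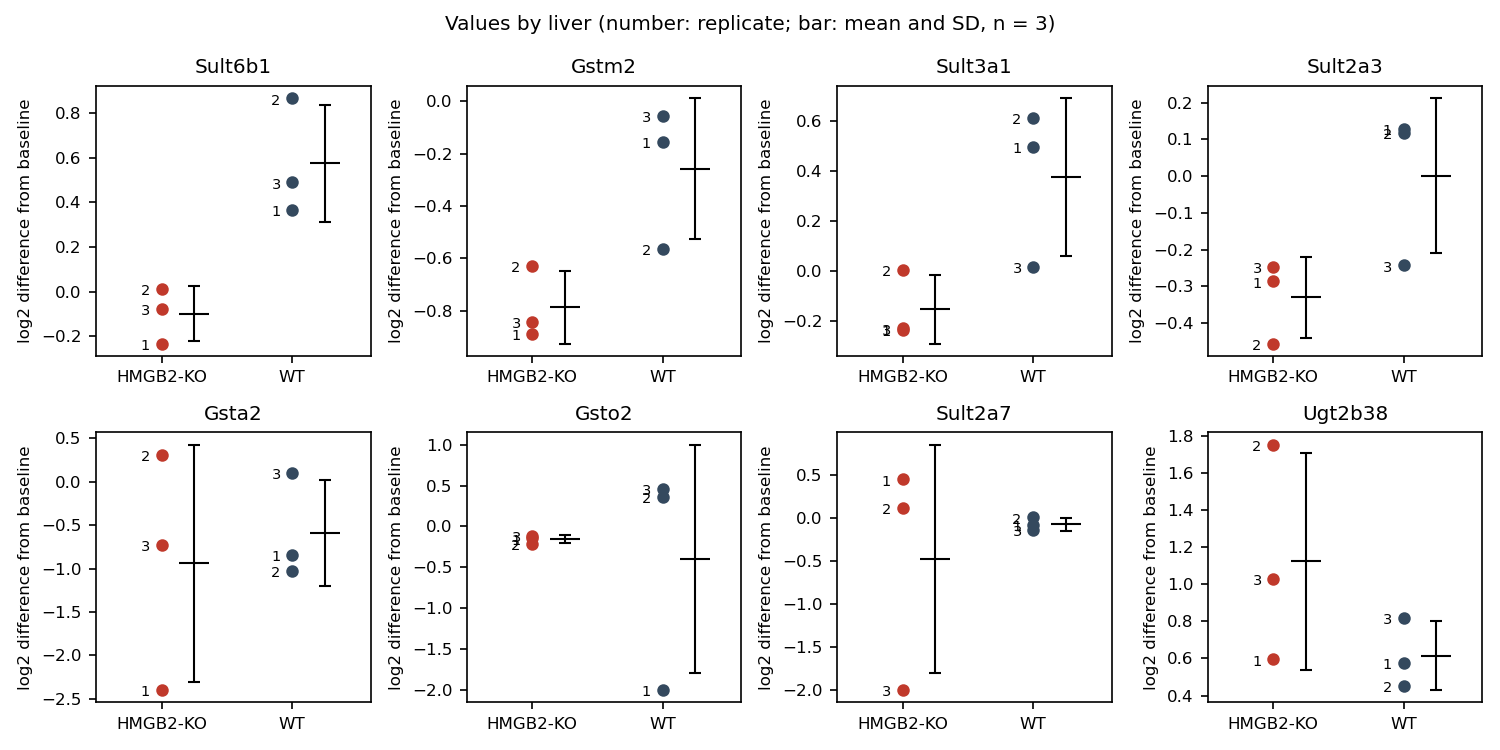
Log2 difference from the row baseline of 8 genes in each liver, HMGB2-KO left of WT in every panel, with the replicate number beside each point and the mean with SD (n = 3) at its right. In the upper 4 genes the HMGB2-KO livers lie below all WT livers, and in Gsta2, Gsto2 and Sult2a7 one liver at -2.01 or lower sets the spread.

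Of the 10 UGT genes 6 were higher in HMGB2-KO livers, close to the share of all genes, and 0 passed the test. The number higher was 5 as deposited and 4 when WT replicate 2 was left out. Of 7 Ugt2b genes 5 had a positive log2 fold change. Their median was 0.16, and it was 0.04 as deposited and -0.02 when WT replicate 2 was left out. Ugt2b38, which is more active in male than in female mouse liver, had the largest difference. It was at 0.59, 1.75 and 1.03 in HMGB2-KO replicates 1 to 3, against 0.58, 0.45 and 0.82 in WT replicates 1 to 3. HMGB2-KO replicate 2 was far above the others, and HMGB2-KO replicate 1 lay among the WT livers. The log2 fold change was 0.51 (SE 0.28, 95% confidence interval -0.14 to 1.16, limma adjusted p = 0.994), and 0.20 without HMGB2-KO replicate 2. Ugt2b1, a UGT of wide substrate range in liver, was at 0.70, 1.23 and 1.08 in HMGB2-KO livers, against 1.09, 0.85 and 1.20 in WT livers. The genotypes overlapped fully, with a log2 fold change of -0.04 (SE 0.17), and of -0.14 when WT replicate 2 was left out.

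The remaining Ugt2b genes differed less between genotypes. Ugt2b5 was at 0.25, 0.71 and 0.58 in HMGB2-KO livers, against 0.35, 0.11 and 0.49 in WT livers (log2 fold change 0.20, SE 0.17). Ugt2b36 was at 0.15, 0.41 and 0.21 in HMGB2-KO livers, against 0.14, -0.09 and 0.18 in WT livers (log2 fold change 0.18, SE 0.14). In both genes HMGB2-KO replicate 2 was the highest liver and WT replicate 2 the lowest. Ugt2b37 went the other way, at 0.08, 0.70 and -0.00 in HMGB2-KO livers, against 0.73, 0.26 and 0.44 in WT livers (log2 fold change -0.21, SE 0.22). Ugt2b35 was at -0.02, 0.25 and -0.14 in HMGB2-KO livers, against 0.15, -0.54 and 0.00 in WT livers. Leaving WT replicate 2 out gave 0.094 for Ugt2b5, 0.095 for Ugt2b36, -0.32 for Ugt2b37 and -0.046 for Ugt2b35, so Ugt2b35 changed sign. All Ugt2b values may be shared between close copies.

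Outside Ugt2b, Ugt2a3 was at 0.38, 0.46 and 0.51 in HMGB2-KO livers, against 0.68, 0.42 and 0.69 in WT livers, a log2 fold change of -0.15 (SE 0.13). Without WT replicate 2 its HMGB2-KO livers lay below both WT livers, at -0.24. The human UGT3 enzymes use sugars other than glucuronic acid. Mouse Ugt3a2 was at 0.40, 0.30 and 0.31 in HMGB2-KO livers, against 0.25, -0.07 and 0.30 in WT livers, a log2 fold change of 0.17 (SE 0.14). That value was 0.056 as deposited and 0.058 when WT replicate 2, the lowest liver, was left out. Ugt3a1 was at -0.04 (SE 0.17), and at -0.17 in the same 5 livers.

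Ugt2b genes are shown with the 120 bases before their RefSeq start because 4 of them share a motif there. All are on the minus strand of build GRCm38.p6. The stretches are chr5:87424204-87424323 for Ugt2b38, chr5:87254789-87254908 for Ugt2b37, chr5:87092556-87092675 for Ugt2b36, chr5:87140341-87140460 for Ugt2b5, chr5:86926504-86926623 for Ugt2b1 and chr5:86906938-86907057 for Ugt2b34. Capitals mark AGGTCA, a half-site of nuclear receptors, searched on both strands.
Ugt2b38: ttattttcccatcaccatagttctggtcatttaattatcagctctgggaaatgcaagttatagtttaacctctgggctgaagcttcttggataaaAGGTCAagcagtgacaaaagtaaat
Ugt2b37: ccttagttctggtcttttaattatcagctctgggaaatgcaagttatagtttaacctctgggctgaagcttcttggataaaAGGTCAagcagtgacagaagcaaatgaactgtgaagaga
Ugt2b36: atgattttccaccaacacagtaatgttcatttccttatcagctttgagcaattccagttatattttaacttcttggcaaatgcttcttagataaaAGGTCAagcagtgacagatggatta
Ugt2b5: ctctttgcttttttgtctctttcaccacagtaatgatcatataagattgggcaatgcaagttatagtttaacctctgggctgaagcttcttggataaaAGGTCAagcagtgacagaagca
Ugt2b1: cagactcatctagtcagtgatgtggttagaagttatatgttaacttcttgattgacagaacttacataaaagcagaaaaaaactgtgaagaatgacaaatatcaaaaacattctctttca
Ugt2b34: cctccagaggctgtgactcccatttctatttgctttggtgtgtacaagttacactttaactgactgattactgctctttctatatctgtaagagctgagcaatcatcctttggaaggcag

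In Ugt2b38 the motif began at base -25 from the start, as in Ugt2b36, and it began at -22 in Ugt2b5 and at -39 in Ugt2b37. It was not found in these bases of Ugt2b1 or Ugt2b34. The 120 bases of Ugt2b38 were identical to those of Ugt2b37 at 76.1% of aligned positions, to Ugt2b36 at 75.0% and to Ugt2b5 at 73.8%, but to Ugt2b1 at 43.8%. The log2 fold changes of the 4 genes with the motif were 0.51, -0.21, 0.18 and 0.20 in the order printed, beside -0.04 for Ugt2b1 and 0.04 for Ugt2b34. Ugt2b35, which is not printed, held the motif at base -215, before the stretch shown for the others, and was at 0.16. The 95% confidence interval of each of these genes reached 0, and a link between the motif and the fold changes was not tested.

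Promoter windows of 250 bases before to 50 after the start were found for 45 of the 52 genes, 56 windows in all. AGGTCA lay in 17.9% of them, against 16.3% of 32851 windows of all genes. GCGTG lay in 17.9%, against 32.4% of all. TGACNNNGC, the core of the antioxidant response element bound by NRF2, lay in 5.36% of them, namely in windows of Gsta3, Gstm5 and Gstm7, against 12.4% of all. TTCNNNGAA, the site of STAT factors, lay in 3.57%, in Gstm6 and Sult3a1, against 8.30% of all. The HNF1 site lay in 0 windows, against 0.00913% of all. Both strands were searched, TTCNNNGAA reads the same on both, and a match of TGACNNNGC can overlap one of AGGTCA or GCGTG. In Gstm5 a match of TGACNNNGC began at base -42 and one of GCGTG at base -38, so they may share bases. A match is a stretch of letters and not a measured site.

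SULT genes held the smallest p of the families. Sult6b1, a sulfotransferase of little-known substrate, was at -0.23, 0.01 and -0.08 in HMGB2-KO replicates 1 to 3, against 0.37, 0.87 and 0.49 in WT replicates 1 to 3. The genotypes did not overlap, with WT replicate 2 the highest liver. Its mean was -0.10 ± 0.12 in HMGB2-KO livers and 0.57 ± 0.26 in WT livers (SD, n = 3 each), a 1.59-fold difference. The log2 fold change was -0.67 (SE 0.16, 95% confidence interval -1.05 to -0.30, limma unadjusted p = 0.00360, adjusted p = 0.994), and it ranked 43 of 19505 genes by p. Without WT replicate 2 it was -0.53. The related Sult6b2 was at 0.05 (SE 0.22).

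Sult3a1, an amine sulfotransferase that female mouse liver expresses more than male, was at -0.24, 0.00 and -0.23 in HMGB2-KO livers, against 0.50, 0.61 and 0.02 in WT livers. All HMGB2-KO livers were below all WT livers, with HMGB2-KO replicate 2 just under WT replicate 3. The log2 fold change was -0.53 (SE 0.18, limma unadjusted p = 0.0202, adjusted p = 0.994), and -0.41 without WT replicate 2 (unadjusted p = 0.0623). Its neighbour Sult3a2 overlapped between genotypes, with HMGB2-KO livers at -0.44, -0.07 and 0.06, against -0.07, 0.20 and -0.79 in WT livers. It had a log2 fold change of 0.07 (SE 0.26), which became 0.28 when WT replicate 2 was left out.

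Sult2a enzymes sulfonate hydroxysteroids and bile acids, and their 8 genes measured here lie in a row. In RefSeq order the log2 fold changes were 0.19 for Sult2a5, 0.08 for Sult2a2, -0.01 for Sult2a1, -0.48 for Sult2a4, -0.33 for Sult2a3, -0.31 for Sult2a6, 0.10 for Sult2a8 and -0.41 for Sult2a7. Neighbours Sult2a4, Sult2a3 and Sult2a6 thus had negative values side by side, and 0 of the 8 genes had an unadjusted p under 0.05. Sult2a3 was at -0.29, -0.46 and -0.25 in HMGB2-KO livers, against 0.13, 0.12 and -0.24 in WT livers (SE 0.15). Sult2a6 was at -0.23, -0.24 and 0.03 in HMGB2-KO livers, against 0.00, 0.31 and 0.19 in WT livers (SE 0.14). For Sult2a3 the genotypes were barely apart, and for Sult2a6 they overlapped at HMGB2-KO replicate 3.

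HMGB2-KO replicate 3 was low for Sult2a4 and Sult2a7. Sult2a4 was at 0.37, -0.22 and -1.07 in HMGB2-KO livers, against 0.11, 0.49 and -0.08 in WT livers, and its log2 fold change was -0.10 without that liver. Sult2a7 was at 0.45, 0.12 and -2.01 in HMGB2-KO livers, against -0.08, 0.01 and -0.14 in WT livers, and its log2 fold change was 0.36 without that liver. By contrast Sult2a8, a bile acid sulfotransferase of mouse liver, kept within a range of 0.35, from 0.80 to 0.96 in HMGB2-KO livers, against 0.62 to 0.97 in WT livers. Close copies are again uncertain one by one.

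Sult1 enzymes act on phenols, thyroid hormones and oestrogens. Sult1a1, the main phenol sulfotransferase, was at -0.95, -0.87 and -0.58 in HMGB2-KO livers, against -0.38, -0.25 and -1.02 in WT livers. WT replicate 3 was the lowest liver of all, and the log2 fold change was -0.25 (SE 0.22), or -0.49 without it and -0.10 without WT replicate 2. Sult1b1, a sulfotransferase for thyroid hormone, was at -0.02, 0.32 and 0.00 in HMGB2-KO livers, against 0.08, 0.84 and 0.33 in WT livers, and at a log2 fold change of -0.32 (SE 0.21), or -0.11 without WT replicate 2. Sult1c1 was at 0.16, -0.57 and -0.18 in HMGB2-KO livers, against -1.09, 0.84 and 0.29 in WT livers. For Sult1c1 the WT livers spanned the whole range, and the log2 fold change of -0.21 (SE 0.46) became 0.20 without WT replicate 2. The oestrogen sulfotransferase Sult1e1 was lowest in HMGB2-KO replicate 1, at -1.22, and lay between -0.75 and -0.00 in the other 5 livers.

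Differences between livers of the same genotype were wider for GST and SULT genes than over all genes, and less so for UGT genes. The within-genotype SD had a median of 0.25 over the 52 members, against 0.19 over all genes, and without WT replicate 2 the medians were 0.23 and 0.18. By family it was 0.26 for GST, 0.22 for UGT and 0.30 for SULT genes. An SD above 0.5 was found in 7 members (13.5%), namely Gsta2, Gsto2, Gstt2, Sult1c1, Sult1d1, Sult2a4 and Sult2a7, against 5.75% of all genes. These were 3 GST and 4 SULT genes, and 0 of the 10 UGT genes. The range over the 6 livers exceeded 1 log2 unit in 11 members (21.2%), against 10.7% of all genes. Of the 11, 4 were GST, 6 SULT and 1 UGT. These figures describe the members and were not tested.

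**Figure D3:**
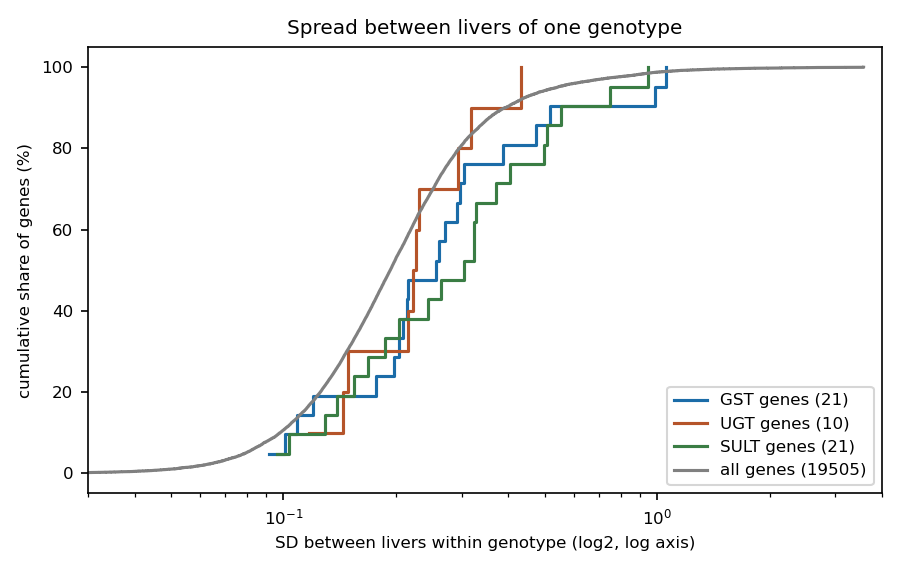
Cumulative share of genes (%) against the within-genotype SD between livers (log2 units, log axis) for GST, UGT and SULT genes and for all 19505 genes. The SULT genes have a median SD of 0.30, against 0.19 for all genes.

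Liver by liver, the extremes gathered in a few animals. HMGB2-KO replicate 1 was the lowest of the 6 livers for 16 of the 52 genes (17.3% of all genes), among them 8 of 21 GST genes: Gsta2, Gsta4, Gstm2 to Gstm6 and Gstt3. HMGB2-KO replicate 2 was the highest for 15 genes (15.4% of all genes), among them 7 GST genes, 3 of them theta genes, and 5 of 10 UGT genes. WT replicate 2 was the lowest for 15 genes (against 22.3% of all genes), with 7 GST and 6 UGT genes. It was the highest for 10 genes (against 21.8% of all genes), among them 8 of 21 SULT genes. With the values as deposited WT replicate 2 was the lowest for 2 members (against 3.74% of all genes). It was then the highest for 22 (against 59.2% of all genes), so its place depends on the centring. HMGB2-KO replicate 1 was then the lowest for 23 members, against 22.3% of all genes.

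**Figure D4:**
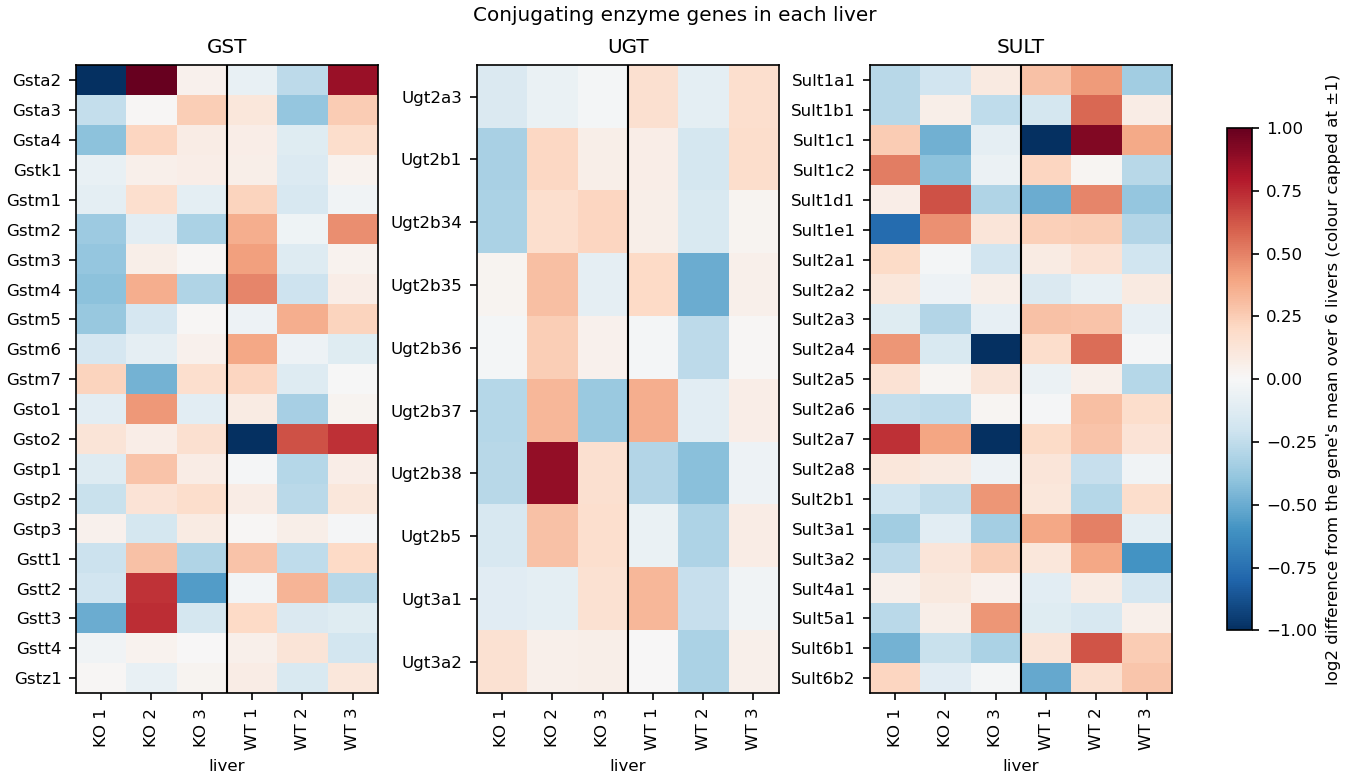
Log2 difference of each gene from its own mean over the 6 livers, with HMGB2-KO replicates 1 to 3 left of WT replicates 1 to 3 and a panel per family (colours capped at ±1). The column of HMGB2-KO replicate 1 is low for 8 of 21 GST genes, and that of HMGB2-KO replicate 2 is the highest for 5 of 10 UGT genes.

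Other genes were described from 20 lists holding 201 different genes, of which 183 were measured. The lists hold genes that supply, regulate or follow conjugation, genes that differ between the sexes, and markers of liver zones and cell types. No gene on them passed the adjusted threshold, and 8 of the 183 (4.37%) had an unadjusted p under 0.05, against 3.68% of all genes. Of the 8, Pecam1, Oit3, Muc1 and Cyp4a12a came from the lists of cell types and of sex differences. Of 9 genes of glutathione synthesis and recycling 5 were higher, with a median log2 fold change of 0.09, or -0.00 without WT replicate 2. In that list the cystine transporter Slc7a11 was at -0.18, -0.43 and -0.34 in HMGB2-KO livers, against -0.00, -0.05 and 0.11 in WT livers (log2 fold change -0.34, SE 0.13, limma adjusted p = 0.994). Of 12 NRF2 targets outside the families 7 were higher, and their median of 0.07 became -0.07 when that liver was left out. The quinone reductase Nqo1 was at -0.75, -0.91 and -0.91 in HMGB2-KO livers, against -0.18, -0.43 and -0.52 in WT livers, without overlap (log2 fold change -0.48, SE 0.14, limma adjusted p = 0.994). Slc7a11 and Nqo1 were the 2 genes of that list with an unadjusted p under 0.05, and both were lower.

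Cosubstrate genes differed little. All 6 genes of UDP-glucuronic acid supply and release were higher, by a median of 0.11 that became -0.01 as deposited, and 0 had an unadjusted p under 0.05. Ugp2, which makes UDP-glucose, led them at 0.30 (SE 0.32). Of 6 genes of PAPS supply 3 were higher, with a median of 0.01, and the sulfate transporter Slc26a1 was at -0.19 (SE 0.15). The 10 mercapturate genes, which process glutathione conjugates, had 6 higher and a median of 0.03, with the peptidase Anpep at 0.27 (SE 0.13). Of 8 membrane-bound and other glutathione transferases 5 were higher, with a median of 0.04 and Hpgds, a prostaglandin D synthase, at -0.18 (SE 0.14). The 14 other conjugating enzymes split 7 to 7, with a median of 0.02 and the acyl-CoA ligase Acsm3 at 0.37 (SE 0.19). Leaving WT replicate 2 out turned the medians of 4 of these lists negative, to -0.044 for PAPS supply, -0.083 for mercapturate genes, -0.042 for the other glutathione transferases and -0.024 for the other conjugating enzymes.

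Among 15 transporters 9 were higher, with a median of 0.03. Slco1a4, an uptake transporter for organic anions, was at -0.49, -1.21 and -1.01 in HMGB2-KO livers, against 0.04, 0.09 and -0.56 in WT livers. The genotypes overlapped at HMGB2-KO replicate 1, and the log2 fold change was -0.76 (SE 0.24, limma adjusted p = 0.994). Abcb1b, an export pump for drugs, was at -0.70, -0.37 and -0.80 in HMGB2-KO livers, against -0.26, -0.35 and -0.12 in WT livers. Of 19 regulators 13 were higher, with a median of 0.14, or 0.017 as deposited and 0.24 without WT replicate 1. Nr1i2, which encodes PXR, had a log2 fold change of -0.35 (SE 0.19) that became -0.18 when WT replicate 2 was left out. The 9 targets of CAR, PXR and AHR had 6 higher and a median of 0.06, with Cyp2c55 at 0.39 (SE 0.21).

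Genes that differ between the sexes were listed because some members do so, with Sult3a1, Ugt2b38 and Gstp1 as examples. The 52 members were not sorted by sex bias, so these examples do not give the direction of all such members. The lists of female-biased and male-biased genes were chosen with earlier results of these data known, so their direction is not independent evidence. Of 10 female-biased genes outside the families 8 were lower, with a median of -0.17, and A1bg was at 0.03, -0.06 and -0.02 in HMGB2-KO livers, against 0.35, 0.33 and 0.05 in WT livers. Of 11 male-biased genes 10 were higher, and their median of 0.14 became 0.03 as deposited. Cyp4a12a was at 1.39, 1.41 and 1.55 in HMGB2-KO livers, against 1.06, 1.01 and 1.10 in WT livers (log2 fold change 0.39, SE 0.12, limma adjusted p = 0.994). In both genes the genotypes did not overlap.

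Markers of cell types were set beside the families. Pericentral hepatocyte markers had 5 of 9 higher and a median of 0.05, and periportal ones 5 of 8 higher and a median of 0.21. The pericentral median was -0.25 without HMGB2-KO replicate 2 and -0.062 when WT replicate 2 was left out. The periportal median was 0.092 as deposited and 0.025 without WT replicate 3. Lgr5 had a log2 fold change of 1.76 that became 0.04 when WT replicate 2, at -5.41, was left out. The periportal marker Cdh1 likewise went from 1.89 to 0.34 without that liver, where it was at -5.10. Cyp2f2 was at 0.25 (SE 0.13). Of 10 general hepatocyte markers 9 were higher, and their median of 0.09 became 0.0045 when WT replicate 2 was left out, with Apoa1 at 0.11 (SE 0.12). All 9 Kupffer cell and macrophage markers were higher, with a list median between 0.41 and 0.73 in HMGB2-KO livers, against 0.27 to 0.46 in WT livers, and the complement gene C1qa at 0.25 (SE 0.13). Cholangiocyte markers had 5 of 7 lower, with a list median between -0.12 and -0.10 in HMGB2-KO livers, against -0.12 to 0.16 in WT livers, and Muc1 at -0.29 (SE 0.12). Over genes their median of -0.22 was -0.34 as deposited and -0.10 without HMGB2-KO replicate 1. In Muc1 the HMGB2-KO livers lay below all WT livers. In Krt19, 1 of the 2 cholangiocyte markers that were higher, they lay above all WT livers (log2 fold change 0.15, SE 0.12). Of 7 endothelial markers 5 were higher, with a median of 0.09 that became -0.03 as deposited. The endothelial marker with the smallest p, Pecam1, was at 0.59, 0.58 and 0.63 in HMGB2-KO livers, against 0.25, 0.05 and -0.13 in WT livers (log2 fold change 0.55, SE 0.14, limma adjusted p = 0.994). Stellate cell markers had 4 of 7 higher, with Colec11 at 0.22 (SE 0.14), and lymphocyte markers 5 of 5, with Nkg7 at 0.25 (SE 0.15) and a median of 0.12 that became -0.013 without WT replicate 3. The part of these cell types in the values of the conjugating enzyme genes was not tested.

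**Figure D5:**
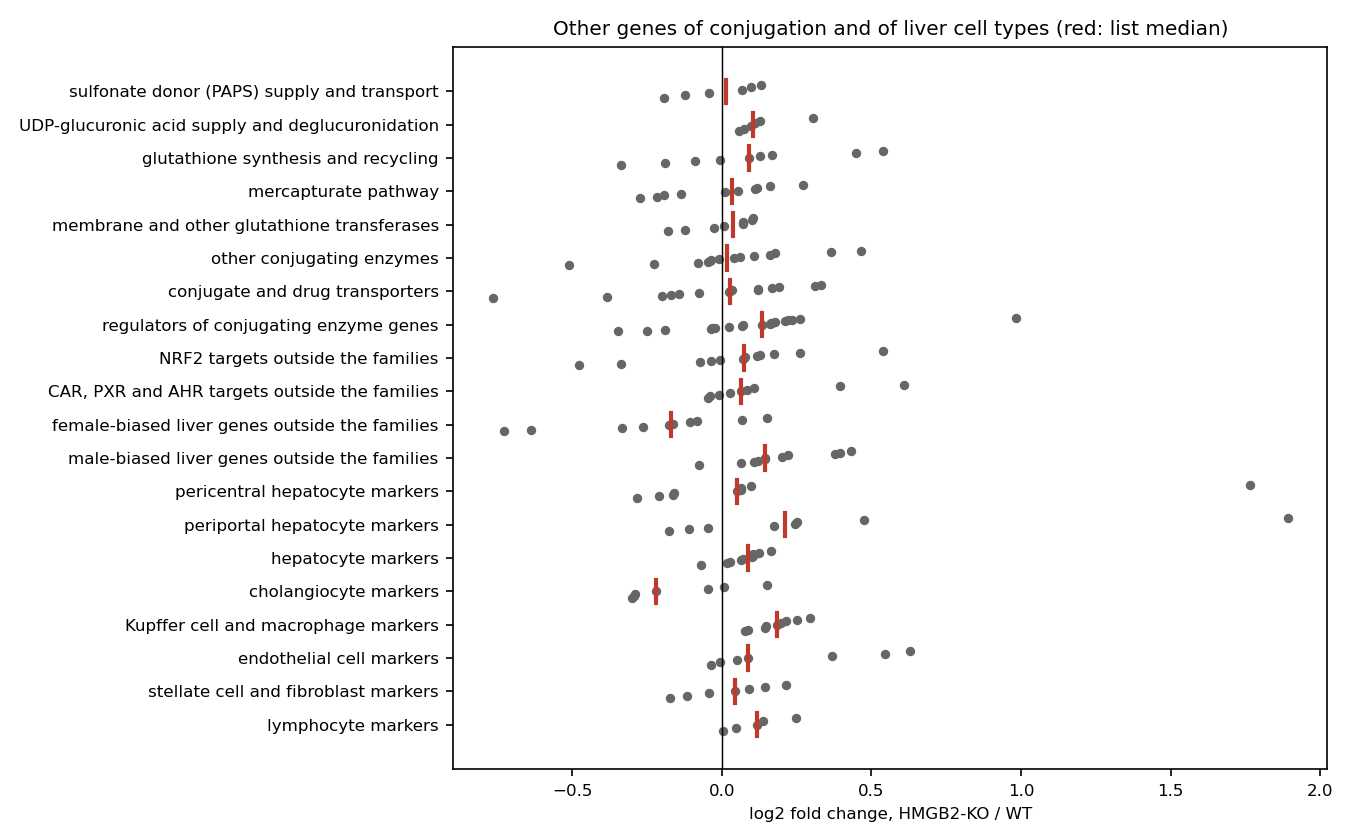
Log2 fold change (HMGB2-KO against WT) of each measured gene in the 20 lists, a row per list, with the list median as a red bar. List medians lie between -0.22 for cholangiocyte markers and 0.21 for periportal markers. The points at the far right are Lgr5 and Cdh1. Both rest on WT replicate 2, without which they are at 0.04 and 0.34.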

How the data were processed

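Total RNA of 6 livers, extracted with Trizol and labelled with biotin per the labels' protocols, was put on 1 Clariom S mouse array per liver. The deposited values were taken as log2, from -8.60 to 6.93 over 22206 rows, each relative to a row baseline. No source used here states the log base, probe summarization, normalization or baseline. The platform annotation names 19572 rows with 1 gene symbol, all matched in the RefSeq table of GRCm38.p6, and leaves 2634 unnamed. Where a gene had more than 1 row (55 genes), the one of highest mean stood for it. Array medians were subtracted, and limma 3.58.1 under R 4.3.3 compared the genotypes (two-sided, 3 livers per group, Benjamini-Hochberg over 19505 genes). Whether this fit finds differences of the sizes reported here was not tested. Nothing says that replicates share litter or day. The number of arrays limits the precision. Each p-value sets a difference between genotype means against a spread between livers. limma draws that spread, gene by gene, towards the spread of all genes. The SE, confidence intervals and p-values rest on this moderated spread and not on the gene's own livers alone.

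Named genes were 5 markers (Gstm1, Gsta3, Ugt2b1, Sult1a1 and Sult3a1), the 5 members of each family with the smallest p and the 3 with the widest range, the gene with the smallest p in each list, and Hmgb2. That rule gives 27 members. Other genes with values were singled out after their values were seen. Members and lists were chosen with earlier results of these data known. Promoter sequences are those of RefSeq. Promoters were aligned globally with Biopython 1.88. Alternatives were other scalings, the mean of rows, array weights, a replicate block, animal numbers, and leaving out each liver. No column of values was left unused.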

Additional observations from a re-analysis of the deposited data

How the results depend on the processing

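No gene of the table passed the adjusted threshold under any of 13 other settings, members included (0 in each), so the choices below bear on sizes and looser counts. With the values as deposited the median of all genes was -0.12, and the family medians were -0.14 for GST, -0.02 for UGT and -0.13 for SULT genes. As deposited, 3 members were lower at 1.5-fold with unadjusted p under 0.05 (5.77%, against 1.46% of all genes), and in 7 all HMGB2-KO livers lay below all WT livers (13.5%, against 10.6%). Within animals 38 to 41 those counts were 3 (against 1.73% of all genes) and 9 (17.3%, against 3516 of 19505 genes). HMGB2-KO livers lay above in 5 members there (9.62%, against 14.8%) and in 1 with quantile normalization (1.92%, against 4.98%). These 4 livers overlap less by construction, as do 5. With 1 liver left out the count at 1.5-fold was 1 to 3 lower (0.502% to 1.48% of all genes) and 0 to 1 higher (0.103% to 0.308% of all genes). The count apart was 5 to 9 lower, with 9 when WT replicate 1 was left out, 8 for HMGB2-KO replicate 2 and 6 for HMGB2-KO replicate 3, WT replicate 2 or WT replicate 3, where 9.62% to 12.1% of all genes were apart. It was 0 to 7 higher, with 7 when HMGB2-KO replicate 1 was left out, 4 for WT replicate 3, 3 for WT replicate 2, 2 for HMGB2-KO replicate 2 and 1 for HMGB2-KO replicate 3, where 8.3% to 9.7% of all genes were apart. Family medians then lay between -0.11 and 0.03 for GST, -0.033 and 0.16 for UGT and -0.12 and 0.01 for SULT genes.

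Of 48 named genes, 38 kept their direction under all 13 settings. Gsta3 was at -0.10 as deposited, -0.0097 with quantile normalization, -0.045 with array weights and between -0.17 and 0.14 with 1 liver left out. Gstm1 was at 0.0033 within animals 38 to 41 and between -0.11 and 0.088. Gstt2 was at 0.021 with quantile normalization, 0.058 with array weights, 0.11 within animals 38 to 41 and between -0.38 and 0.26. Sult1c1 was at 0.062 with array weights and between -0.76 and 0.20. Sult2a7 was at 0.32 within animals 38 to 41 and between -0.87 and 0.36, and Apoa1 was at -0.013 as deposited. Leaving out 1 liver moved Gsta2 between -0.97 and 0.38, Gsto2 between -0.57 and 0.66, Ugt2b1 between -0.16 and 0.11 and Ugt2b35 between -0.046 and 0.30. The cause of each was not tested. Of 260 values of the 20 list medians under other settings, 27 moved beyond the spread between livers, 14 of them as deposited. Livers with the same replicate number deviated together with correlations over genes of 0.04, 0.13 and 0.29. Between livers of unlike number the correlations ran from -0.21 to 0.10. HMGB2-KO replicate 1 stood closer to WT replicate 2, at 0.10, than to WT replicate 1. The labels name no pairs, so the main fit held none, and what livers of the same number share was not tested. A replicate block called 0 genes and left the count of members lower at 1.5-fold at 1.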

Other observations

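The order of the 6 livers in Gsta2 was looked up in other genes after its values were seen. From low to high it was HMGB2-KO replicate 1, WT replicate 2, WT replicate 1, HMGB2-KO replicate 3, WT replicate 3 and HMGB2-KO replicate 2. Exactly this order was found in 36 of the 19505 genes (0.185%), Gsta2 included, and 3 of them ranged over more than 1 log2 unit: Gsta2, the apolipoprotein gene Apoa4 and Ugdh. Ugdh encodes the dehydrogenase that makes UDP-glucuronic acid, the donor of the UGT enzymes. It was at -1.21, -0.09 and -0.29 in HMGB2-KO livers, against -0.79, -1.09 and -0.09 in WT livers. Next by range came As3mt, the arsenic methyltransferase, at -0.68, 0.22 and 0.03 in HMGB2-KO livers, against -0.10, -0.14 and 0.06 in WT livers. Gsta4 was the other member in this order. The order mixes the genotypes, and no shared control of these genes was tested. It was taken from Gsta2 in these same data, and how many genes would show a given order without any link was not worked out. Nothing about conjugation is read from the matches.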
